A study of Bos taurus with 25 samples.

Results

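The genes described here encode 9 proteins that build, coat and load the fat globule of milk, namely BTN1A1, XDH, PLIN2, MFGE8, MUC1, CD36, FABP3, FABP4 and LPL. They were chosen by symbol, through the transcript names that the array gives its probes, and are 9 of the 11068 named genes on the array, measured by 21 of its 43653 probes. Biopsies of the mammary gland and the liver of lactating Holstein cows had been hybridized to 1-colour Agilent bovine arrays, 1 array per cow and tissue, 64 ± 3 days after calving. The question of the study was whether injected vitamins change gene activity in either tissue. All cows received weekly intramuscular injections of 5 mL. Control cows received saline, and 3 of them were arrayed in both tissues. Folic acid at 320 mg was the treatment of the B9 group, which also gave 3 arrays of each tissue. Vitamin B12 at 10 mg was that of the B12 group, with 4 arrays of each tissue. The B9 + B12 group received both doses and gave 3 mammary and 2 liver arrays. In all, 13 cows gave 25 arrays, and 12 cows gave both tissues.

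Milk fat leaves the secretory cell of the mammary gland as a lipid droplet wrapped in the apical plasma membrane. Butyrophilin (BTN1A1) in that membrane, xanthine dehydrogenase (XDH) beneath it and perilipin 2 (PLIN2) on the droplet are regarded as the proteins of the budding step. The finished globule carries lactadherin (MFGE8), mucin 1 (MUC1) and CD36 on its surface, while lipoprotein lipase (LPL), CD36 and the fatty acid binding proteins FABP3 and FABP4 bring fatty acids into and through the cell. The liver stores fat in droplets and exports it as lipoproteins, and does not secrete such globules.

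No spot was saturated on any array. Between 64.5% and 76.5% of the spots of a mammary array, and between 71.2% and 84.2% of those of a liver array, were well above background. The liver arrays of cow 57 (B9) and cow 32 (B9 + B12) had a mean correlation of 0.973 and 0.974 with the other liver arrays, against 0.986 to 0.988 for the remaining 10. The labels of the tissues were checked with marker genes. All 10 hepatocyte markers were lower in the mammary gland. Of 9 markers of the mammary secretory epithelium found, 7 were higher there, among them the caseins CSN1S1, CSN1S2 and CSN3, while the keratins KRT18 and KRT8 were higher in the liver. Averaged over its 9 markers, the secretory epithelium list lay between 15.8 and 16.6 on the log2 scale in mammary arrays and between 9.13 and 11.5 in liver arrays. Hepatocyte markers lay between 7.50 and 9.42 in mammary arrays, the highest in cow 57.

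All 9 genes were higher in the mammary gland than in the liver. The brightest probe of each gene, which stands for it below, was called higher by limma, where a call needed 2-fold or more and an adjusted p (Benjamini-Hochberg) up to 0.05, as were all 21 probes. Of all probes on the array, 10.4% were called higher in the mammary gland and 9.11% lower. The median difference over the 9 genes was 8.44 on the log2 scale, against 0.025 over all probes. Every mammary array lay above every liver array for each of the 9 genes, which was also true of 14.9% of all probes. In biopsies, fewer cells of a type and less RNA per cell cannot be told apart. Values of both tissues in this comparison were normalized over all 25 arrays.

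**Figure D1:**
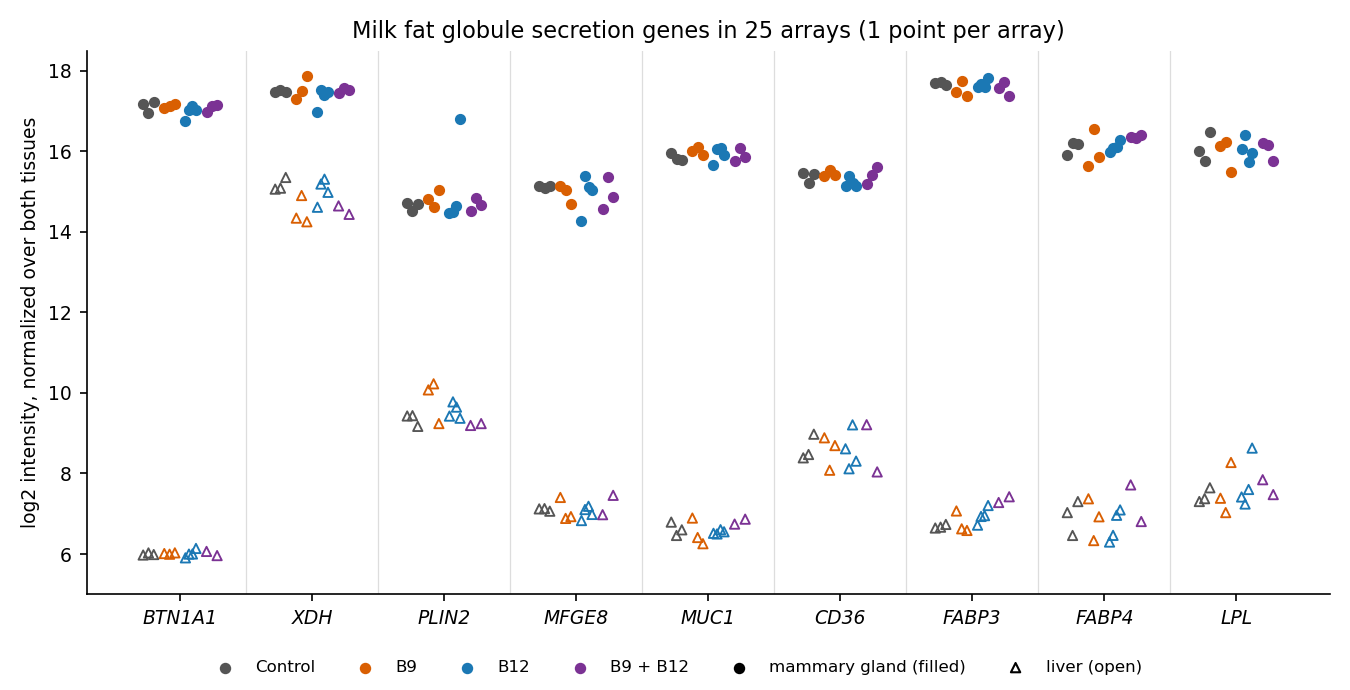
Log2 intensity of the brightest probe of each of the 9 genes (vertical axis, normalized over both tissues), with 1 point per array, filled circles for the 13 mammary arrays, open triangles for the 12 liver arrays and colours for the treatments. The tissues are separated for every gene, most widely for BTN1A1 and least for XDH, and a single B12 cow lies far above the others for PLIN2.

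BTN1A1, the receptor-like protein of the apical membrane, had the largest difference of the 9 brightest probes, an order that did not hold for its other probes or for the mean of its probes. Its log2 intensity in the mammary gland had a lowest value of 16.76, a median of 17.12 and a highest value of 17.24 over 13 arrays. In the liver it lay between 5.90 and 6.14 with a median of 6.00, and the spot was well above background on only 1 of the 12 liver arrays, so that most of these liver values are close to the floor of the array. The difference was 11.07 (SE 0.042) with an adjusted p of 1.72e-30 by limma, and since 11 of 12 liver values were not well above background, its size, SE and p are set in part by that floor. Of its other 2 probes, 1 was well above background on all 12 liver arrays, at 6.42 to 7.14 (median 6.56), and lay at 12.48 to 13.28 (median 12.76) in the mammary gland. BTN1A1 thus had a weak but measured liver signal on that probe, where the difference was 6.15 (SE 0.087).

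XDH, the purine-degrading enzyme that also has a structural part in globule release, was bright in both tissues. Its mammary values ran from 16.98 over a median of 17.48 to 17.87, and its liver values from 14.25 over a median of 14.94 to 15.35. The 2 ranges did not touch, yet the difference of 2.67 (SE 0.094, adjusted p = 1.53e-15 by limma) was the smallest of the 9 genes and amounted to 6.37-fold. PLIN2, the coat protein of the droplet in both tissues, ran from 14.47 to 16.81 with a median of 14.68 in the mammary gland, and from 9.17 to 10.23 with a median of 9.43 in the liver. It was higher in the mammary gland by 5.32 (SE 0.21, adjusted p = 7.95e-15 by limma), or 40.0-fold. XDH and PLIN2 thus had the smallest differences of the 9 genes.

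The surface proteins of the globule differed more. MFGE8, a secreted protein that binds phosphatidylserine, lay between 14.27 and 15.38 (median 15.10) in the mammary gland and between 6.83 and 7.46 (median 7.08) in the liver, a difference of 7.89 (SE 0.12). MUC1, a heavily glycosylated membrane mucin, lay between 15.66 and 16.11 (median 15.91) and between 6.26 and 6.89 (median 6.58), a difference of 9.30 (SE 0.068). CD36, a membrane receptor for long-chain fatty acids, lay between 15.14 and 15.62 (median 15.39) and between 8.04 and 9.21 (median 8.54), a difference of 6.77 (SE 0.14). All 12 liver arrays were well above background for these 3 probes, so the liver values are measured, though low for MUC1 and MFGE8. From a processed signal that has no offset, the differences were 11.02 for MUC1 and 8.56 for MFGE8. The adjusted p by limma was 7.25e-22 for MFGE8, 3.26e-26 for MUC1 and 1.56e-19 for CD36.

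Of the fatty acid handlers, FABP3, the binding protein of heart and mammary gland, had the second largest difference of the 9 brightest probes, and the largest when the probes of a gene were averaged. Its mammary values ran from 17.37 to 17.82 (median 17.65) and its liver values from 6.58 to 7.42 (median 6.83), a difference of 10.68 (SE 0.066) or 1637-fold. FABP4, the binding protein best known from adipocytes and capillaries, ran from 15.64 to 16.55 (median 16.18) in the mammary gland and from 6.30 to 7.72 (median 6.94) in the liver, a difference of 9.21 (SE 0.14). LPL, the enzyme that frees fatty acids from circulating lipoproteins, ran from 15.50 to 16.49 (median 16.06) and from 7.03 to 8.63 (median 7.45), a difference of 8.44 (SE 0.16). Since FABP4, LPL and CD36 are also made by adipocytes, the adipocyte list was set beside them. Its mean over 8 markers lay between 8.25 and 8.70 in mammary arrays and between 9.99 and 10.6 in liver arrays, and 0 of the 8 markers were called higher in the mammary gland. The list holds genes that hepatocytes also express, such as PCK1 (−9.80), THRSP (−2.72) and GPD1 (−0.02), so its liver mean is no measure of adipocytes. LEP (0.11) and PLIN1 (−0.17), which are closer to adipocytes alone, were well above background on 9 of 13 mammary arrays each. The 8 capillary endothelium markers had means of 9.35 to 10.1 in mammary arrays and 9.29 to 10.1 in liver arrays, with 1 marker called higher, and the part of either cell type in the levels of FABP4, LPL and CD36 was not tested. The 95% intervals of the differences of MUC1 (9.16 to 9.45) and FABP4 (8.91 to 9.51) overlapped, as did those of LPL (8.09 to 8.78) and MFGE8 (7.65 to 8.13), while the other neighbours in the order of differences had separate intervals.

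The same direction was found within each animal. In the 12 cows with both tissues, the mammary gland was higher in 12 of 12 cows for every gene, with p = 0.000488 by an exact sign-flip permutation test, two-sided, the smallest value that 12 pairs allow. Within a cow the fold ran from 1088 to 2234 for FABP3 and from 3.98 to 11.5 for XDH. For BTN1A1 it came to 1580 to 2457 against liver values that were not well above background in 11 of 12 cows, so that these folds are set by the floor of the array. PLIN2 varied most, from 20.9-fold to 168-fold, and the 168-fold came from cow 52. Between these extremes lay MFGE8 (156-fold to 295-fold), MUC1 (513-fold to 869-fold), CD36 (72.8-fold to 175-fold), FABP4 (357-fold to 1187-fold) and LPL (173-fold to 593-fold). Within the 4 slides that held both tissues, the smallest difference of any gene was 2.55 for XDH and the largest 11.16 for BTN1A1.

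**Figure D2:**
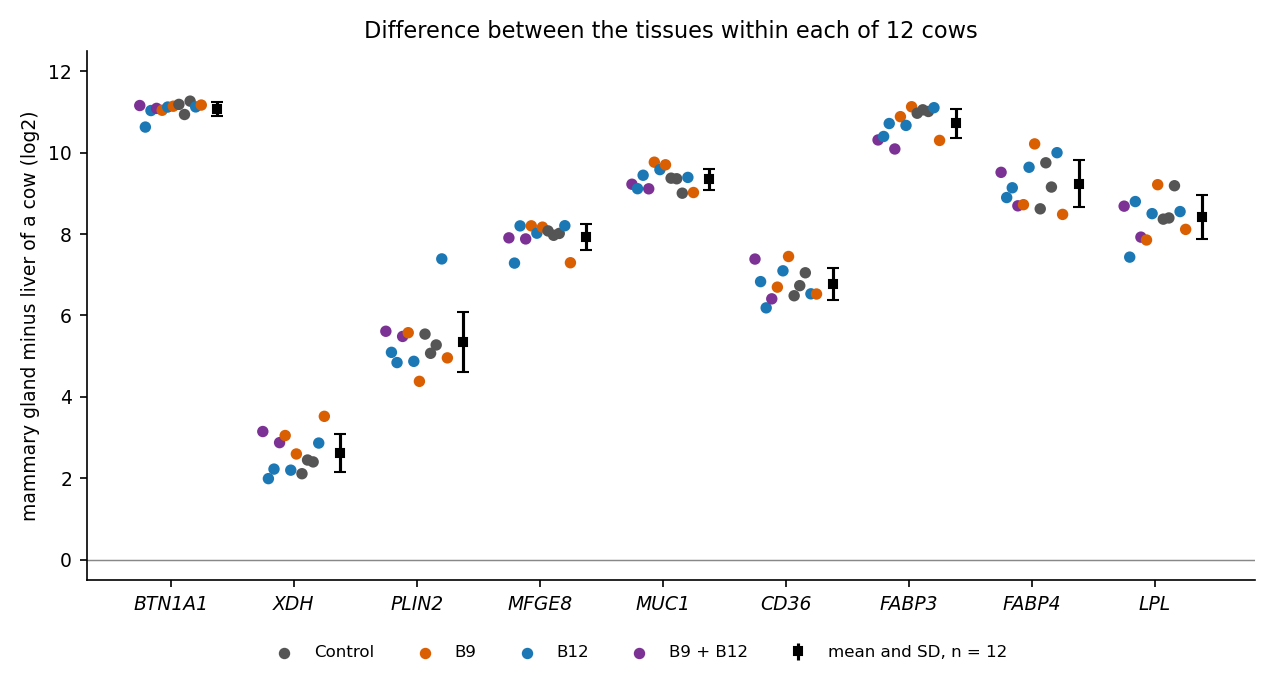
Mammary minus liver log2 intensity (vertical axis) of each gene in each of the 12 cows with both tissues, ordered by cow number within a gene and coloured by treatment, with the mean and SD in black. All points lie above 0, with BTN1A1 near 11.07 and XDH near 2.62, and cow 52 is the highest point of PLIN2.

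The size of these differences depended on the probe and on the scaling, but their direction did not. For MUC1 the 5 probes gave differences between 2.07 and 9.30 and a mean over probes of 5.60, for BTN1A1 the 3 probes gave 6.15 to 11.07 and a mean of 7.95, and for LPL the 3 probes gave 4.90 to 8.44. The 3 probes of FABP3 lay close together, between 10.11 and 10.68, as did both probes of MFGE8 (7.68 and 7.89), and those of CD36 gave 5.65 and 6.77. All 3 FABP3 differences exceeded those of the other 2 BTN1A1 probes. XDH, PLIN2 and FABP4 had a single probe each. The BTN1A1 probe A_73_P062736 and the MUC1 probe A_73_P397951 were not well above background on any liver array, so their differences are bounds, at least 96.4-fold and at least 73.7-fold with quantiles over both tissues, and at least 42.8-fold and at least 33.8-fold with quantiles within each tissue. When quantiles were set within each tissue, so that the tissues kept their own distributions, the difference of XDH was 1.43 and that of PLIN2 was 3.59, with a median over all probes of −0.37. With a processed signal that has no offset, BTN1A1 reached 16.75, FABP3 12.24, MUC1 11.02, FABP4 10.56, LPL 9.12 and MFGE8 8.56. Of all probes called, 53.3% were higher in the mammary gland in the normalization used here, 9.73% with quantiles within tissue and 80.7% with 75th percentile scaling, and the 9 genes were called higher in each of these.

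**Figure D3:**
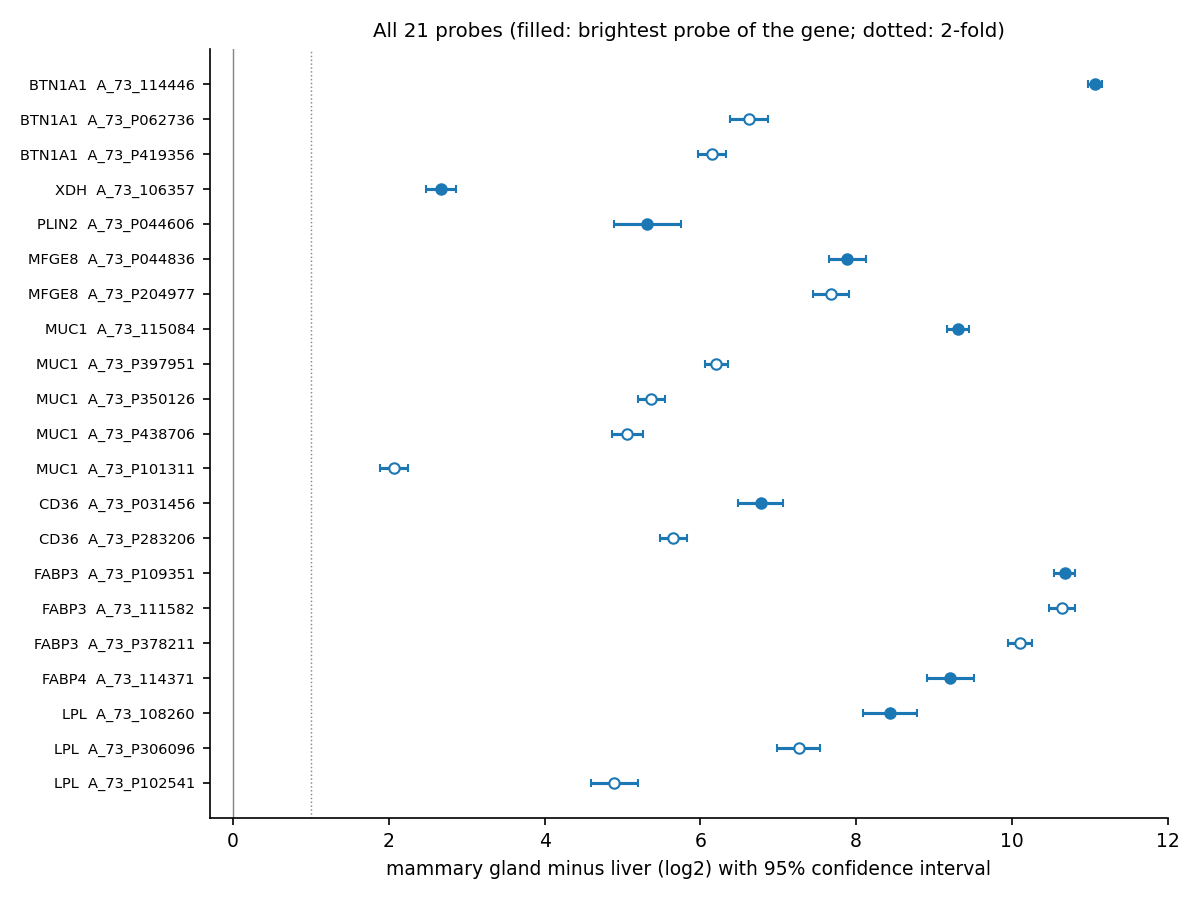
Mammary minus liver difference on the log2 scale (horizontal axis) of all 21 probes with 95% confidence intervals from limma, filled for the brightest probe of a gene, with the dotted line at 2-fold. All 21 intervals lie to the right of the dotted line, and the probes of MUC1 are the most widely spread.

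The other genes of milk fat formation did not share one direction. Over the brightest probes of all 11068 named genes, 1665 were called higher in the mammary gland and 1408 lower. In the list of other droplet and globule membrane proteins, 17 of 20 genes were found, of which 10 were called higher in the mammary gland and 3 lower. The largest rises were those of MUC15, another globule mucin (9.11, SE 0.057), and ANXA5, a phospholipid-binding annexin (4.66, SE 0.077), and the largest falls those of CIDEB (−5.55, SE 0.16) and CIDEC (−2.06, SE 0.21), droplet proteins of the CIDE family. Of 16 genes of fatty acid uptake, binding and activation, 5 were called higher, led by FABP5 (6.24, SE 0.12) and the lipoprotein receptor VLDLR (4.36, SE 0.19). A further 7 of that list were called lower, led by the liver binding protein FABP1 (−10.81, SE 0.26) and the transporter SLC27A2 (−6.55, SE 0.058). The median difference of this uptake list was −0.85, below 0, in contrast to 8.44 for the 9 genes. Of 8 genes of triacylglycerol assembly, 3 were called higher, with GPAM (5.13, SE 0.13) and AGPAT1 (4.40, SE 0.077) first, and 3 lower, with DGAT2 (−4.17, SE 0.17) and AGPAT2 (−3.78, SE 0.15) first. Of 11 regulators, 3 were called higher, with ELF5 (8.78, SE 0.079) and PPARG (2.74, SE 0.10) first, and 2 lower, namely NR1H3 (−4.21, SE 0.075) and THRSP (−2.72, SE 0.34). With quantiles within each tissue the counts of higher and lower were 8 and 6 for the membrane proteins, 2 and 9 for uptake, 3 and 5 for assembly and 2 and 6 for regulators. Of all 43653 probes, 13076 were then called, 1272 of them higher. In that setting PLIN3, PLIN5, ANXA1, ANXA2, ACSL1, SREBF1, INSIG1 and STAT5B turned sign. PLIN3 and INSIG1 also turned sign with 75th percentile scaling, as did PLIN1 and FABP2, and SCAP did with the cow or the slide as a block.

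In the mammary gland, no vitamin treatment changed any of the 9 genes beyond the test. By limma, 0 of 9 were called in each of the 3 comparisons with Control, against 0% of all probes, and Cyber-T, the regularized test of the study's methods, also called 0 of 9, against 0.0115% of all probes for B9, 0.0206% for B12 and 0.0137% for B9 + B12. At an unadjusted p below 0.05, 0 of 9 genes passed in any mammary comparison, against 2.53% of all probes for B9, 2.27% for B12 and 1.95% for B9 + B12. Values in these comparisons were normalized within tissue. The changes ran from −0.24 (FABP3) to 0.21 (PLIN2) for B9, from −0.20 (XDH) to 0.58 (PLIN2) for B12, and from −0.22 (MFGE8) to 0.32 (FABP4) for B9 + B12. In 24 of the 27 gene and treatment pairs the 95% interval of the change lay within 2-fold either way, and the 3 exceptions were those of PLIN2. The narrowest intervals were those of BTN1A1, whose bounds lay 0.25 to 0.26 on either side of its change.

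**Figure D4:**
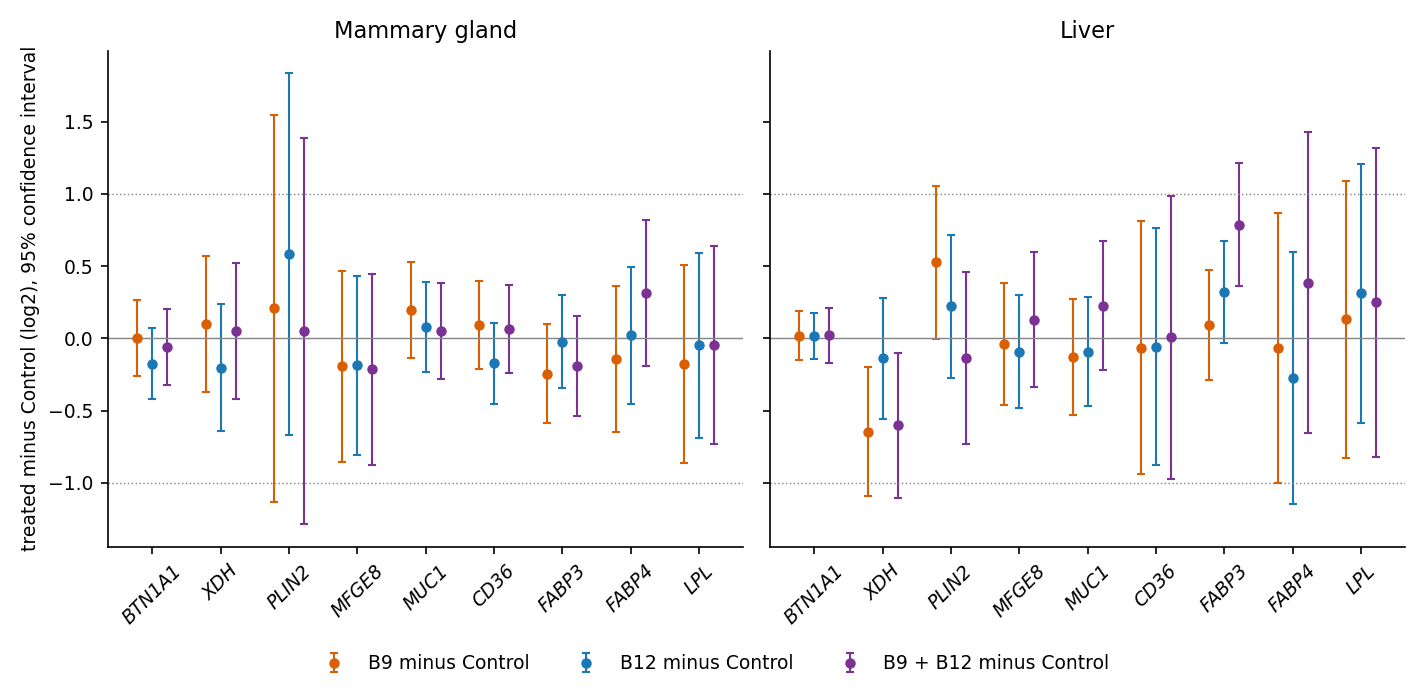
Treated minus Control log2 intensity (vertical axis) of the 9 genes in the mammary gland (left) and the liver (right) with 95% confidence intervals from limma, coloured by treatment, with dotted lines at 2-fold. All intervals cross 0 in the mammary gland, where those of PLIN2 are the widest, and in the liver those of XDH for B9 and for B9 + B12 and that of FABP3 for B9 + B12 do not.

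PLIN2 in the mammary gland was set by 1 animal. Control arrays had 13.47, 13.27 and 13.46, B9 arrays 13.60, 13.37 and 13.86, and B9 + B12 arrays 13.28, 13.64 and 13.44. The B12 arrays had 13.23, 13.25 and 13.41 in cows 36, 37 and 40, but 16.05 in cow 52. Cow 52 was thus 4.56-fold above the highest of the other 12 arrays, and those 12 stayed within 13.23 to 13.86. The 8 macrophage markers averaged 10.69 in the mammary array of cow 52, the highest of the 13, with 10.52 in cow 36 next, and their part in the PLIN2 value was not tested. The spot of cow 52 had a raw median signal of 60032.5, was neither saturated nor called an outlier by the scanner software, and had 16.04 in the authors' processed table. With cow 52, PLIN2 was 0.58 (SE 0.57) higher in B12 than in Control, and without it the difference was −0.10 (SE 0.13), with adjusted p of 1.00 by limma in both. With the slide as a block and cow 52 kept it was 1.10. In the liver of cow 52 PLIN2 was 9.95, within the range of the other B12 cows (9.89 to 10.32).

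Of the 9 brightest probes, that of FABP4 alone had treated and Control arrays that did not overlap in the mammary gland, for B9 + B12. For B9 and for B12 none was separated, against 7.01% and 3.89% of all probes, while 2 of the 4 dimmer MUC1 probes were separated for B9, with changes of 0.26 (SE 0.19) and 0.24 (SE 0.15). Control arrays had 15.02, 15.37 and 15.33, and B9 + B12 arrays had 15.56, 15.51 and 15.61. The B9 arrays, with 14.63, 15.75 and 14.92, and the B12 arrays, with 15.10, 15.23, 15.24 and 15.48, overlapped the Control values. FABP4 was 0.32 higher (SE 0.23) in B9 + B12 with an adjusted p of 1.00 by limma, and the exact permutation test, two-sided, gave p = 0.10, the smallest that 3 against 3 arrays allow. Of all probes, 6.91% were separated in the same way, so that 1 of 9 genes is near the background. Within the 3 slides that held both groups, FABP4 differed by 0.14, 0.27 and 0.54.

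In the liver, too, 0 of 9 genes were called in any comparison by limma, against 0% of all probes for B9 and for B9 + B12 and 0.00229% for B12. Cyber-T also called 0 of 9, against 0.0115% of all probes for B9, 0.0985% for B12 and 0.0527% for B9 + B12. At an unadjusted p below 0.05, XDH passed for B9 (3.52% of all probes), XDH and FABP3 passed for B9 + B12 (5.72%), and no gene passed for B12 (2.11%). The 95% interval lay within 2-fold either way in 18 of 27 gene and treatment pairs. Those that did not belonged to LPL in all 3 comparisons, XDH and FABP4 in 2 each, and PLIN2 and FABP3 in 1 each. The brightest probe of BTN1A1, close to background in the liver, had changes of 0.02 in all 3 comparisons, and the probe well above background there had 0.15 (SE 0.19) for B9, −0.08 (SE 0.18) for B12 and 0.23 (SE 0.22) for B9 + B12. In the B12 livers no probe of the 9 genes was separated from Control, against 4.97% of all probes.

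XDH in the liver was separated from Control in both groups given folic acid, though neither difference passed the test. Control livers had 16.02, 15.77 and 15.74, whereas B9 livers had 14.96, 15.59 and 15.05, and B9 + B12 livers 15.14 and 15.35. The B12 livers, with 15.67, 15.98, 15.86 and 15.31, overlapped both. All B9 and B9 + B12 values lay below all Control values, which held for 8.46% and 21.9% of all probes in either direction. Against the same Control arrays, the difference of XDH was −0.64 (SE 0.20) in B9 and −0.60 (SE 0.22) in B9 + B12 by limma, with adjusted p of 0.906 and 0.688. The exact permutation test, two-sided, gave p = 0.10 for each, the smallest its design allows. Within a slide the difference was −0.97 for B9, from cow 57 against cow 42, and −0.67 and −0.63 for B9 + B12. Without the liver arrays of cows 32 and 57, the differences were −0.57 and −0.50, and in the second of these the treated group was 1 cow. With the processed signal the B9 + B12 difference was −0.29. In the mammary gland of the same B9 cows XDH was 16.67, 16.96 and 17.47, against 16.90, 17.00 and 16.90 in Control, with no shared direction.

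FABP3 in the liver was separated from Control in both B9 + B12 cows, again without passing the test. Their values were 7.77 in cow 32 and 7.60 in cow 38, against 6.96, 6.88 and 6.85 in Control. The B9 livers had 6.78, 6.83 and 7.36, and the B12 livers 7.52, 7.22, 7.20 and 6.94, so that 3 of the 4 B12 values also lay above all Control values. The change with B9 + B12 was 0.79 (SE 0.19, p = 0.00213, adjusted p = 0.688) by limma and p = 0.10 by the exact permutation test, two-sided, again the smallest possible. The other 2 probes of FABP3 changed by 0.69 and 0.25, also without overlap of the groups. Of all probes, 21.9% were separated in this comparison with 2 treated arrays, so that 2 of 9 genes (FABP3 and XDH) is near the background. Within a slide the change was 0.64 for cow 38 and 0.89 for cow 32, and without cow 32 it was 0.71, with a group of 1 cow. With the processed signal it was 1.22. The 9 secretory epithelium markers averaged 9.33 and 9.80 in these B9 + B12 livers and 9.37 to 9.40 in Control livers. In the B12 livers of cows 36, 37, 40 and 52 they averaged 11.5, 11.1, 10.1 and 9.13, in the same order as FABP3, and in the B9 liver of cow 57, the highest of its group for FABP3, they averaged 10.5, against 9.42 and 9.41 in cows 41 and 39. Capillary endothelium markers averaged 10.1 in cow 32 and 9.74 in cow 38, above the 9.49 to 9.65 of Control, and 7 of 8 had a change above 0, with a median of 0.44. Of the myoepithelium markers 9 of 10 had a change above 0 (median 0.38). Plasma cell markers had 6 of 8 (median 0.55) and macrophage markers 6 of 8 (median 0.20). Secretory epithelium markers had 6 of 9, adipocyte markers 5 of 8 and hepatocyte markers 5 of 10. The brightest probes of all named genes had 58.5% above 0, and 0 markers were called in each list. The part of these markers in the FABP3 values was not tested.

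**Figure D5:**
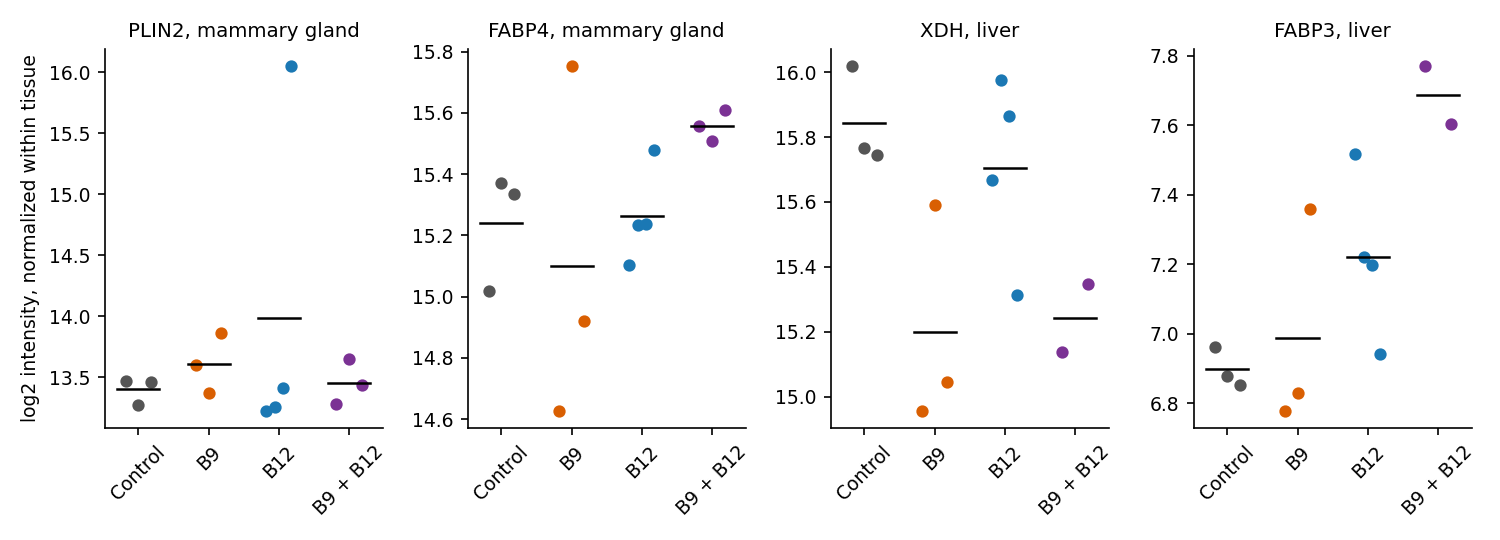
Log2 intensity normalized within tissue (vertical axes, each with its own range and not starting at 0) of PLIN2 and FABP4 in the mammary gland and of XDH and FABP3 in the liver, with 1 point per array and a bar at the group mean. Cow 52 lies at 16.05 for PLIN2, and XDH in the liver lies between 14.96 and 15.59 in the B9 and B9 + B12 groups and between 15.74 and 16.02 in Control.

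No treatment effect was shown to differ between the tissues. Limma called 0 of 9 genes in the interactions of tissue with B9, B12 and B9 + B12, against 0% of all probes in each. For FABP3 the B9 + B12 effect was 0.80 lower in the mammary gland than in the liver (−0.80, SE 0.20, adjusted p = 0.837). For XDH the B9 effect was 0.74 higher in the mammary gland than in the liver (SE 0.27, adjusted p = 1.00), and the B9 + B12 effect 0.66 higher (SE 0.28, adjusted p = 0.837). At an unadjusted p below 0.05, these were the genes that passed, 1 for B9 (2.36% of all probes), 0 for B12 (1.82%) and 2 for B9 + B12 (4.25%). With the processed signal these interactions were −1.42 for FABP3 and 0.36 and 0.26 for XDH. Limma also called 0 of 9 genes in the interaction of B9 with B12 in either tissue, against 0% of all probes. At an unadjusted p below 0.05 none of the 9 passed in the mammary gland (3.16% of all probes) and PLIN2 passed in the liver (4.05%), with an interaction of −0.88 (SE 0.35, adjusted p = 1.00 by limma). There the B9 livers had 9.76, 10.79 and 10.63, while Control livers had 9.68, 9.96 and 9.95, B12 livers 9.95, 10.32, 10.19 and 9.89, and B9 + B12 livers 9.75 and 9.71.

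Of the 52 pathway genes found, limma called 0 in any treatment comparison. In the mammary gland the smallest p for B9 was that of CIDEA, a droplet protein of secretory cells (−1.93, SE 0.46), with an adjusted p of 1.00 by limma and of 0.00600 by Cyber-T. CIDEA was the single pathway gene that Cyber-T called, so that its call depends on the test. In the liver, B9 + B12 gave the smallest p for VLDLR (1.00, SE 0.22), and GPAM, the acyltransferase that starts triacylglycerol assembly, had a difference of −1.06 (SE 0.30) there, both with an adjusted p of 0.688 by limma. GPAM had a difference of −0.88 (SE 0.25, adjusted p = 1.00 by limma) in the B12 livers, against the same Control arrays.

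The 9 genes varied unequally between cows of the same group. In the mammary gland the SD within groups was smallest for BTN1A1 (0.16), CD36 (0.18), MUC1 (0.20) and FABP3 (0.20), close to the median of 0.17 over all probes well above background. It was largest for PLIN2 (0.81), LPL (0.41) and MFGE8 (0.40), which ranked at or above the 92nd percentile of these probes. In the liver LPL (0.58), FABP4 (0.56) and CD36 (0.53) varied most, against a median of 0.25. There the other probes of LPL (0.17 and 0.25) and of CD36 (0.24) did not share the high spread, and FABP4 has a single probe. In the mammary gland the other 2 probes of BTN1A1 had SDs of 0.35 and 0.20, so that its low spread holds for the brightest probe. Of the other genes of the budding step, XDH had an SD of 0.28 and PLIN2 the largest of the 9. Over the 12 mammary arrays other than that of cow 52, the SD of PLIN2 was 0.19, taken over all groups together and not within groups.

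The mammary array of cow 36, of the B12 group, was the lowest of 13 for 6 of the 9 genes, namely BTN1A1, XDH, PLIN2, MFGE8, MUC1 and CD36. Its values were 15.99 for BTN1A1, 16.23 for XDH, 13.01 for MFGE8 and 14.66 for MUC1, and the next lowest values were 16.21, 16.67, 13.34 and 14.80. For PLIN2 (13.23 against 13.25) and CD36 (13.977 against 13.984) it lay hardly below the next array. Its secretory epithelium markers averaged 16.3, inside the range of the other mammary arrays, while its capillary endothelium markers averaged 10.08, the highest of the 13 mammary arrays (10.07 in cow 31 came next). It had the lowest share of spots well above background, 64.5%. The part of these markers and of that share in the values of cow 36 was not tested. How many of all probes were lowest in this array was not counted, so 6 of 9 has no background beside it.

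Across the 13 mammary arrays the levels of the 9 genes moved together only in part. Of 36 pairs of genes, 28 had a Pearson r above 0, with a median of 0.17 and a range of −0.37 to 0.75, all from the same libraries and treatments. The closest pairs were MFGE8 with MUC1 (r = 0.75, Spearman rho = 0.58) and BTN1A1 with CD36 (r = 0.72, rho = 0.84). Without the 2 arrays farthest from the median, r was 0.45 for the former and 0.61 for the latter. In the 12 livers the pair of MFGE8 with MUC1 had r = 0.72 (rho = 0.64), and 0.40 without the 2 farthest arrays, which were those of cows 32 and 57, and 20 of 36 pairs were above 0. Among 8476 other genes well above background, the most like XDH was NRBP2 (r = 0.93, rho = 0.90 over 13 mammary arrays), and the most like FABP3 was GALT (r = 0.94, rho = 0.91), the enzyme that converts galactose phosphate. LPL was most like IDI1 (r = 0.83) and INSIG1 (r = 0.80), genes of sterol synthesis and its control. BTN1A1 was most like ZNF582 (r = 0.90), MFGE8 like SEMA4A (r = 0.87), MUC1 like TECR (r = 0.89), CD36 like STK17A (r = 0.90) and FABP4 like PRXL2C (r = 0.88). All these r are the top of 8476 genes over 13 arrays, and how high unrelated genes would reach was not tested. For PLIN2 the highest r was with UBE4A (r = 0.98), and it rested on cow 52, in which UBE4A had 11.68 against 7.73 to 8.10 in the other 12 arrays. Without the 2 farthest arrays that r was 0.53. The second gene, MMP19, also had its highest value in cow 52 (9.09) and turned from r = 0.86 to r = −0.72 without the 2 farthest arrays.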

How the data were processed

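Arrays were scanned and read with Agilent Feature Extraction 10.7.3.1. The authors deposited per-spot fluorescence intensity (median signal, local background and processed signal, none normalized between arrays) and a table of log2 values, background-corrected and normalized apart in each tissue (array medians 6.97 to 6.98 in the liver and 6.13 to 6.14 in the mammary gland). Against normexp (offset 16) with quantiles, that table was off by a median of 0.026 for liver and 0.035 for mammary arrays. The direction and log base of its values follow from that match. It served as an alternative, since with the tissues normalized apart its medians differ between them.

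From the median signal, background was corrected by normexp (offset 50), outlier spots and control spots were left out, and quantiles were set over both tissues for tissue differences and tissue interactions, and within tissue for the treatments. The 43803 spots gave 43653 probes. Of 27886 names, 11113 had a current symbol in the ARS-UCD2.0 gene table. The array was annotated on HGSC Btau_3.1, so no position is given. The 8 groups were fitted by limma 3.58.1 (R 4.3.3), p-values were adjusted over the whole array by Benjamini-Hochberg, and calls needed 2-fold or more with an adjusted p up to 0.05. A bound for a probe that was dim on all liver arrays set the mammary mean against the mean, per array, of the higher of the lowest signal among probes well above background and the probe's own. Exact permutation tests were two-sided. Scripts were tested on simulated data. Figures used matplotlib 3.10.9, numpy 2.4.6 and pandas 2.3.3.

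The members and lists were chosen with earlier results of these data known. Each member stands by its brightest probe. In a treatment comparison fold and test are given where a member was called or its groups did not overlap, list genes are those with the largest called changes or the smallest p, and like genes have the highest r. Lists were uptake, assembly, droplet and membrane proteins, regulators, and markers of secretory epithelium, hepatocytes, adipocytes, capillary endothelium, macrophages, myoepithelium and plasma cells. Of these markers, 7 of 8 for macrophages were called lower in the mammary gland, 9 of 10 for myoepithelium higher, and 3 higher and 1 lower of 8 for plasma cells.

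Cows pair the tissues as the same animal. Deviations from group means correlated between the tissues of a cow by −0.25 to 0.26 (median 0.038), above 0.1 in 4 of 12 cows. The slide (8 slides of 2 to 4 arrays) was tested as a block. The arrays' number limits the precision, as does a liver signal over background of 2.30 to 10.5 and a mammary one of 2.92 to 5.06. Within a tissue every array came from a different cow, so p-values of comparisons within a tissue measure the spread between cows. The main limma fits of tissue differences and tissue interactions held the mammary and the liver array of 12 cows. These fits had no term for the cow, so their SEs and p-values treat the arrays of a cow as independent.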

Additional observations from a re-analysis of the deposited data

Results flagged for a closer look

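The PLIN2 value of cow 52 in the B12 mammary group was 16.05, against 13.23 to 13.41 in the other 3 cows of the group, and its gap to the nearest of them made up 0.933 of the group's whole range. Among the 18 groups of 4 arrays so examined (9 genes in 2 tissues) it was the only one past Dixon's 95% limit, where chance passes about 1 in 20. PLIN2 has 1 probe on the array, and the cause was not tested.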

How the results depend on the processing

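All 9 genes were called higher in the mammary gland under each of 11 alternatives and with any 1 of the 25 arrays left out (9 called in each), and 0 of 9 were called in any treatment comparison or interaction under any alternative (0 in each with 1 array left out). Among the treatment effects and interactions recomputed one by one (PLIN2, FABP4, XDH and FABP3 where the report gives their test), the direction changed for PLIN2 in the B12 mammary group, −0.10 without cow 52 and −0.10 to 0.84 over the arrays left out in turn. With the cow as a fixed replicate block, 9 genes were called between tissues and 0 in each tissue interaction (XDH by B9 0.74, XDH by B9 + B12 0.69, FABP3 by B9 + B12 −0.81), so the block changed no call. A fixed slide block gave a difference of −0.97 for XDH in the B9 livers (adjusted p = 0.157, range over alternatives 0.157 to 1.00). PLIN2 in the B12 mammary group reached 1.10 with the slide block, and the processed signal gave 1.22 for FABP3 and −0.29 for XDH in the B9 + B12 livers. Cyber-T called CIDEA for B9 in the mammary gland (adjusted p = 0.00600), which limma did not. With one array left out, the smallest adjusted p of FABP3 in the B9 + B12 livers was 0.108. The median tissue difference over all probes was 0.025 as reported, 0.80 with 75th percentile scaling, 0.48 with the processed signal, −0.37 with quantiles within tissue and −0.56 in the authors' table. The tissue difference ranged from 7.95 to 16.75 for BTN1A1, 1.43 to 2.82 for XDH and 3.59 to 5.55 for PLIN2. It ranged from 6.41 to 8.56 for MFGE8, 5.60 to 11.02 for MUC1 and 5.19 to 7.02 for CD36. For FABP3 the range was 9.91 to 12.24, for FABP4 8.09 to 10.56 and for LPL 6.87 to 9.12. In a group reduced to 1 array that array was assumed to vary like the others. Dim liver signal limits the fold of BTN1A1. It also limits those of the dimmer MUC1 probes, which were well above background on 0, 3, 9 and 10 of 12 liver arrays.

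Leaving out the liver arrays of cows 32 and 57 and using the authors' table for the tissue difference were chosen after the data were seen, as were Cyber-T on the pathway lists and the bounds with quantiles within tissue.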
